A study of Mus musculus with 8 samples.

Results

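The interleukin-1 (IL-1) family and inflammasome genes described here are 10 of the 46517 genes in the deposited table: the agonist cytokines *Il1a*, *Il1b* and *Il18*, the inhibitors *Il1rn* and *Il18bp*, the receptor chains *Il1r1*, *Il1rap* and *Il1r2*, and the inflammasome genes *Nlrp3* and *Casp1*. They were chosen by symbol, with no measured value in the rule, and matched to the table by Ensembl identifier. All 10 were found, and all 10 passed the filter on low values, under which 4 or more libraries had to hold 10 or more normalized counts of a gene and which left 14139 genes tested.

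IL-1 alpha and IL-1 beta signal through the receptor encoded by *Il1r1*, which pairs with the accessory chain encoded by *Il1rap*. The receptor antagonist encoded by *Il1rn* occupies that receptor without signalling, and the decoy receptor encoded by *Il1r2* binds IL-1 without transmitting a signal. IL-1 beta and IL-18 are made as inactive precursors that caspase-1, the product of *Casp1*, cuts in inflammasomes such as the one assembled around the sensor NLRP3. IL-18 is held in check by the soluble binding protein encoded by *Il18bp*. In bone, IL-1 is known as a cytokine that promotes osteoclast formation and activity, and osteoclasts are the multinucleated cells of the monocyte lineage that resorb bone.

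The libraries were RNAseq of mature osteoclasts grown from bone marrow of *Elmo1*-/- mice, which lack the cytoplasmic adapter ELMO1 in all cells, and of *Elmo1*+/- mice, which carry 1 intact allele. Each genotype had 4 libraries, 1 per mouse, and the control libraries are titled as wild type although their genotype label and the design text give *Elmo1*+/-. Mice were 6 to 8 weeks old, and all cultures received 10% L929 conditioned medium and 50 ng/ml RANKL, the cytokine that drives osteoclast differentiation, and were harvested at day 7. The labels name no inflammasome activator. What was measured is RNA only, so precursor processing by caspase-1 and the release of cytokines were not measured.

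Library totals lay between 20905502 and 40846651 reads on genes. *Elmo1* itself, which checks the labels, had 274, 287, 316 and 291 normalized counts in the 4 *Elmo1*-/- mice, in the order of their numbers, and 1528, 1423, 1769 and 1651 in the 4 *Elmo1*+/- mice, a log2 fold change of −2.44 (SE 0.09, limma adjusted p = 8.4e-06). It was the only gene called between genotypes in the test as fixed, so that 0.00707% of genes tested were called. Normalized counts are reads per gene divided by 1 size factor per library, and fold changes are differences of log2(normalized count + 1), *Elmo1*-/- minus *Elmo1*+/-. The osteoclast label was checked on 11 markers, among them *Ctsk*, the bone-degrading protease cathepsin K, and *Acp5*, the acid phosphatase TRAP, and each was detected in every library. Markers of macrophages and monocytes were abundant too, with 9 genes summing to 196361 to 267929 normalized counts per library and *Adgre1*, which encodes F4/80, at a mean of 97960, and 11 neutrophil markers summed to 11211 to 24058. Which of these cells carried the RNA of the IL-1 genes was not measured. The markers of lymphocytes were at most 6.22 normalized counts per gene.

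The comparisons turn on the levels of the cytokine and inhibitor genes, so the sequences around the start sites of the agonists *Il1a*, *Il1b* and *Il18* and of the antagonist *Il1rn* are shown first. All 10 genes matched the RefSeq start windows (mouse GRCm38.p6), with 14 windows in all, each running from 250 bases before to 50 bases after an annotated start. The sequences are written 5′ to 3′ on the strand of the gene, and capitals mark matches to 5 short motifs. The window of *Il1rn* is the one of its 3 windows at chr2:24345121-24345420 on the plus strand, and those of *Il1a* at chr2:129309923-129310222 and *Il1b* at chr2:129371090-129371389 are on the minus strand. The window of *Il18* at chr9:50554450-50554749 is on the plus strand.
Il1a: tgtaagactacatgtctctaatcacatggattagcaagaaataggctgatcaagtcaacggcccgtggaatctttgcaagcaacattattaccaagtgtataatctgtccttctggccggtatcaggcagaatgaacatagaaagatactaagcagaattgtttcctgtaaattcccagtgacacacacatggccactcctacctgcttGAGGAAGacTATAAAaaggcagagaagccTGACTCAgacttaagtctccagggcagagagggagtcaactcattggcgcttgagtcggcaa
Il1b: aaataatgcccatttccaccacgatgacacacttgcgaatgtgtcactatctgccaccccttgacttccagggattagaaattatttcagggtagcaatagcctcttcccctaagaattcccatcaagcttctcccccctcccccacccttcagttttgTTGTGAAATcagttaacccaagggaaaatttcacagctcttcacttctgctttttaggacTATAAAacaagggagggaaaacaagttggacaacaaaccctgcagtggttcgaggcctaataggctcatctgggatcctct
Il1rn: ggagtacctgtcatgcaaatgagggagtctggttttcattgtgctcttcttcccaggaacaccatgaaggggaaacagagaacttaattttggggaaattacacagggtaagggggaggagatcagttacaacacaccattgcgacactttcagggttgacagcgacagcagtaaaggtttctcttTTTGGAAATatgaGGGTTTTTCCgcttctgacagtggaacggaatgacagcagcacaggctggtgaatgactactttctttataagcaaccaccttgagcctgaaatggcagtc
Il18: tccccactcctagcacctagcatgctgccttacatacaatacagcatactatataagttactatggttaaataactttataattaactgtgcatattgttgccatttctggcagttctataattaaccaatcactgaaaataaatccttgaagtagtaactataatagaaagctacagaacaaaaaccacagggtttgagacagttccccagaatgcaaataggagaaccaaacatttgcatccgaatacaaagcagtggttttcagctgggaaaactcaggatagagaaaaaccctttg

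The window of *Il1a* held the AP-1 letters TGANTCA 12 bases before the start, the TATA letters TATAAA 32 bases before it and the ETS letters GAGGAAG 41 bases before it. The window of *Il1b* held TATAAA 31 bases before the start and the C/EBP letters TTNNGNAAT 91 bases before it. The window of *Il1rn* held the NF-kB letters, GGG and any 2 bases followed by TTTCC, 51 bases before the start and TTNNGNAAT 64 bases before it. In the overlapping *Il1rn* window at chr2:24345041-24345340, the same letters lie 30 and 17 bases after the annotated start, and the window at chr2:24336610-24336909 held the AP-1 letters alone, 141 bases before its start. In the window of *Il18* no match to these letters was present. Of 32851 RefSeq windows of the same length, 1.63% held the NF-kB letters, 7.81% the AP-1 letters, 8.32% the TATA letters, 11.5% the C/EBP letters and 13.6% the ETS letters. Both strands were searched, except for the TATA letters, searched on the strand of the gene, and the matches in these 4 windows do not overlap. A match describes the letters of the sequence and no factor was measured here.

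Levels were compared between genes as normalized counts per kilobase of exon. By this measure *Casp1* came first with a mean of 2117 over the 8 libraries (1914 to 2644), followed by *Il1rn* at 1647 (1108 to 2063), *Nlrp3* at 809 (731 to 952), *Il1b* at 315 (222 to 496) and *Il1a* at 266 (105 to 518). Below them stood *Il18* at 142 (97.5 to 222), *Il18bp* at 135 (96.9 to 215), *Il1r1* at 43.9 (15.3 to 67.3), *Il1rap* at 27.4 (21.2 to 34.99) and *Il1r2* at 6.88 (3.19 to 10.6). The RNA of the sensor, the protease and the antagonist was above that of the receptor chains. Among neighbours in this order, the ranges of *Casp1* and *Il1rn*, of *Il1b* and *Il1a*, of *Il1a* and *Il18*, of *Il18* and *Il18bp*, and of *Il1r1* and *Il1rap* overlapped, and the other neighbours did not. The exon length joins the exons of all annotated transcripts of a gene, which lowers the value of a gene with long alternative ends such as *Il1rap*.

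The agonist genes did not pass the test between genotypes. *Il1b* (chromosome 2, 129364570 to 129371139, GRCm38, protein coding) had 594, 445, 689 and 703 normalized counts in the *Elmo1*-/- mice numbered 1, 2, 3 and 4, and 493, 424, 946 and 517 in the controls, the order used throughout. The highest value belonged to *Elmo1*+/- mouse 3 and the lowest to *Elmo1*+/- mouse 2, so the *Elmo1*-/- values all lay inside the control range. The log2 fold change was 0.08 (SE 0.25, 95% interval −0.49 to 0.65). *Il1a* (chromosome 2, 129299610 to 129309972) had 215, 438, 668 and 790 normalized counts in *Elmo1*-/- mice and 281, 208, 1022 and 576 in *Elmo1*+/- mice. The mice numbered 3 and 4 were above the mice numbered 1 and 2 in both genotypes, and the spread over 8 libraries was the widest of the 10 genes, a coefficient of variation of 56.0%. Its log2 fold change of 0.13 had an SE of 0.55 and an interval from −1.12 to 1.38, so that a doubling in either direction lay inside it. The fit has no term for the mouse numbers, so this interval also holds the difference between the mice numbered 1 and 2 and those numbered 3 and 4. *Il18* (chromosome 9, 50554827 to 50581840) had 229, 148, 109 and 131 normalized counts in *Elmo1*-/- mice and 165, 165, 101 and 127 in *Elmo1*+/- mice, on 66 to 242 reads per library. Here the order was the other way, with the mice numbered 3 and 4 below the others, and the log2 fold change was 0.12 (SE 0.25, interval −0.44 to 0.69).

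The genes of the soluble inhibitors were the next group. *Il1rn* (chromosome 2, 24336853 to 24351494) had 8170, 8271, 9618 and 11180 normalized counts in *Elmo1*-/- mice and 7167, 6135, 10983 and 11417 in *Elmo1*+/- mice. All 4 *Elmo1*-/- values lay between the lowest and the highest control value, and the log2 fold change was 0.10 (SE 0.21, interval −0.38 to 0.58). *Il18bp* (chromosome 7, 102014885 to 102018690) had 651, 435, 372 and 408 normalized counts in *Elmo1*-/- mice and 383, 380, 352 and 293 in *Elmo1*+/- mice. Among the 8 values, the lowest *Elmo1*-/- one, of mouse 3, lay below the controls of mice 1 and 2, and the other 3 *Elmo1*-/- values were above every control. The log2 fold change of 0.38 (SE 0.18, interval −0.02 to 0.78) did not pass the test (limma adjusted p = 0.9999). An exact 2-sided permutation test over the 70 arrangements of the 8 libraries gave p = 0.0857, where the smallest p the design allows is 0.0286. *Il18bp* is among the genes that the study picked from these same libraries, so its direction here is not independent evidence. Without *Elmo1*-/- mouse 1, which had the highest value, the log2 fold change was 0.21, and without *Elmo1*-/- mouse 3 it was 0.48, with no overlap between genotypes in the latter case. Under that omission 2.57% of all genes tested did not overlap, against 0.941% with all mice.

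Among the receptor chains, the signalling receptor gene *Il1r1* (chromosome 1, 40225080 to 40317257) had 97.4, 121, 358 and 385 normalized counts in *Elmo1*-/- mice and 258, 173, 414 and 428 in *Elmo1*+/- mice. In each genotype the mice numbered 3 and 4 were above the mice numbered 1 and 2. At each number the *Elmo1*-/- mouse was below the control, although the labels do not say that a shared number pairs mice. The log2 fold change of −0.57 (SE 0.50, interval −1.70 to 0.57) did not pass the test, and the exact permutation test gave p = 0.314. As for *Il1a*, that interval also holds the difference between the mouse numbers. Within the mice numbered 1 and 2 the difference was −0.95 and within those numbered 3 and 4 it was −0.18, and without *Elmo1*-/- mouse 1 the log2 fold change was −0.22. The accessory chain gene *Il1rap* (chromosome 16, 26581704 to 26730117) had 240, 397, 304 and 349 normalized counts in *Elmo1*-/- mice and 267, 294, 324 and 317 in *Elmo1*+/- mice. Mice 1 and 2 of *Elmo1*-/- held the lowest and the highest value, and the log2 fold change was 0.08 (SE 0.15, interval −0.27 to 0.43). The decoy receptor gene *Il1r2* (chromosome 1, 40074079 to 40125231) was close to the filter, with 4 to 22 reads per library. It had 18.0, 10.8, 11.7 and 14.0 normalized counts in *Elmo1*-/- mice and 20.2, 13.8, 6.09 and 10.5 in *Elmo1*+/- mice, so both groups spread over the same low range. The log2 fold change of 0.18 (SE 0.36, interval −0.63 to 0.99) did not pass the test.

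The inflammasome genes were the steadiest of the 10. *Nlrp3* (chromosome 11, 59541568 to 59566956) had 3299, 3862, 3174 and 3295 normalized counts in *Elmo1*-/- mice and 3399, 3018, 3236 and 2967 in *Elmo1*+/- mice, a coefficient of variation of 8.42% over the 8 libraries. The highest value was that of *Elmo1*-/- mouse 2, and the other 3 *Elmo1*-/- values fell within the range of the controls. The log2 fold change was 0.11 (SE 0.08, interval −0.08 to 0.29). *Casp1* (chromosome 9, 5298517 to 5307265) had 3958, 3081, 2907 and 2866 normalized counts in *Elmo1*-/- mice and 3095, 3326, 3070 and 3046 in *Elmo1*+/- mice. *Elmo1*-/- mouse 1 was the highest and *Elmo1*-/- mice 3 and 4 were the lowest, and the log2 fold change was 0.02 (SE 0.11, interval −0.22 to 0.26). For these abundant transcripts the intervals were the narrowest of the 10, reaching at most 0.29 on the log2 scale.

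**Figure D1:**
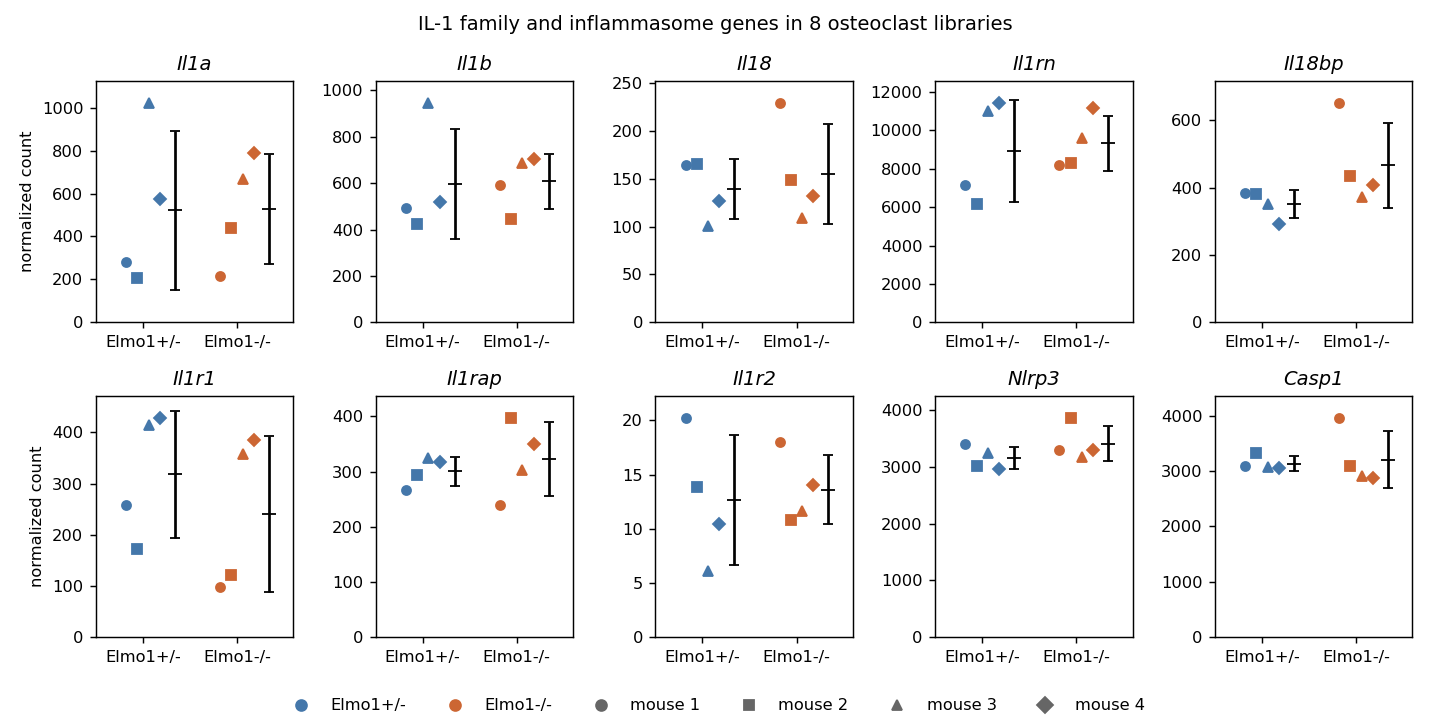
Normalized counts of the 10 genes (vertical axes, linear, starting at 0) in the 4 *Elmo1*-/- and the 4 *Elmo1*+/- libraries, with 1 point per mouse, shaped by its number, and a bar beside them for the mean and SD. The genotypes overlap for every gene, and for *Il1a*, *Il1r1* and *Il1rn* the mice numbered 3 and 4 are the upper points of both genotypes.

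Taking the 10 genes as a list, 0 were called at an adjusted p under 0.05 by limma, 0 had an unadjusted p under 0.05 against 0.941% of all genes tested, and 0 had genotypes that did not overlap, again against 0.941% of all genes tested. edgeR and DESeq2 on the recovered reads also called 0 of the 10. The fold change was positive for 9 of 10, with a median of 0.10, while 48.4% of all genes tested were positive with a median of −0.003. The median size of the change, without its sign, was 0.12 for the 10 genes and 0.06 for all genes tested. These counts are a description, since several of the 10 genes moved together across mice. When 1 mouse was left out at a time, 7 of the 10 genes changed sign at least once, and *Il18bp*, *Nlrp3* and *Il1r1* did not. The labels do not say that a shared replicate number pairs mice. With that number as a block, 389 in place of 133 of 14139 genes had an unadjusted p under 0.05, among them *Il18bp* and *Il1r1*. The limma adjusted p of both was 0.9998 with the block.

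**Figure D2:**
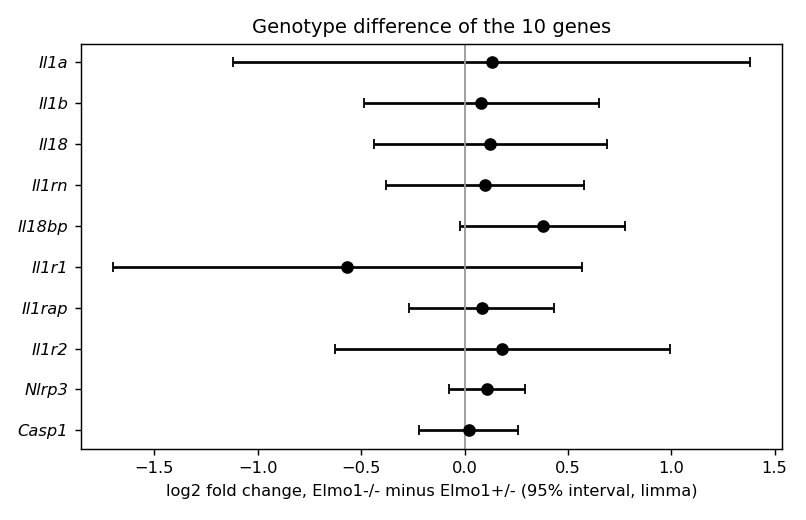
Log2 fold change of each gene, *Elmo1*-/- minus *Elmo1*+/- (horizontal axis), with points for the estimate from limma and bars for the 95% interval, n = 4 mice per genotype. Every interval includes 0, and the widest belong to *Il1a* and *Il1r1*, the narrowest to *Nlrp3* and *Casp1*. The fit has no term for the mouse numbers, so differences between these add to the width.

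The study summarised a gene by the *Elmo1*-/- mean over the sum of both genotype means, where 0.5 is no difference, and compared groups of 2 mice per genotype. With the means taken over all 4 mice of each genotype instead, *Il18bp* was at 0.570 and *Il1r1* at 0.430, and the other 8 genes lay between 0.503 for *Il1a* and 0.526 for *Il18*.

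Because IL-1 action depends on the balance of agonist and inhibitor, the ratio of each inhibitor to its partner was taken within each library. Per kilobase of exon, the RNA of *Il1rn* was 4.002 to 7.61 times that of *Il1b* and 3.83 to 13.6 times that of *Il1a* in the 8 libraries. *Il18bp* RNA was 0.783 to 1.19 times that of *Il18* per kilobase, on joined exon lengths of 3026 and 1031 bases. In normalized counts it was 2.30 to 3.5 times, against 11.6 to 22.1 times for *Il1rn* over *Il1b*. By both measures the IL-18 inhibitor was thus not in such excess over its cytokine at the RNA level. Per kilobase, the decoy *Il1r2* was 0.0490 to 0.615 times the signalling receptor *Il1r1*. Between genotypes, the log2 ratio of normalized counts differed by 0.02 (SE 0.22) for *Il1rn* over *Il1b*, by −0.03 (SE 0.46) for *Il1rn* over *Il1a*, by 0.25 (SE 0.16) for *Il18bp* over *Il18* and by 0.75 (SE 0.82) for *Il1r2* over *Il1r1*, in each case *Elmo1*-/- minus *Elmo1*+/-. The 2-sided exact permutation p-values were 0.971, 0.886, 0.143 and 0.4, and 0.971, 0.971, 0.571 and 0.8 after Benjamini-Hochberg adjustment over the 4 ratios. For *Il18bp* over *Il18*, the ratio per kilobase was 0.969, 0.997, 1.16 and 1.06 in *Elmo1*-/- mice and 0.792, 0.783, 1.19 and 0.789 in *Elmo1*+/- mice. All *Elmo1*-/- mice were above 3 of the 4 controls, and *Elmo1*+/- mouse 3 was above them all. Without that mouse the log2 difference was 0.40. The genotypes then cannot overlap, because all *Elmo1*-/- mice were above the remaining controls, so this omission is no test of the difference. Omitting any other mouse left an overlap, with log2 differences of 0.20 to 0.29. The difference for *Il1r2* over *Il1r1* was 0.27 without *Elmo1*-/- mouse 1 and 0.31 without *Elmo1*+/- mouse 3.

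**Figure D3:**
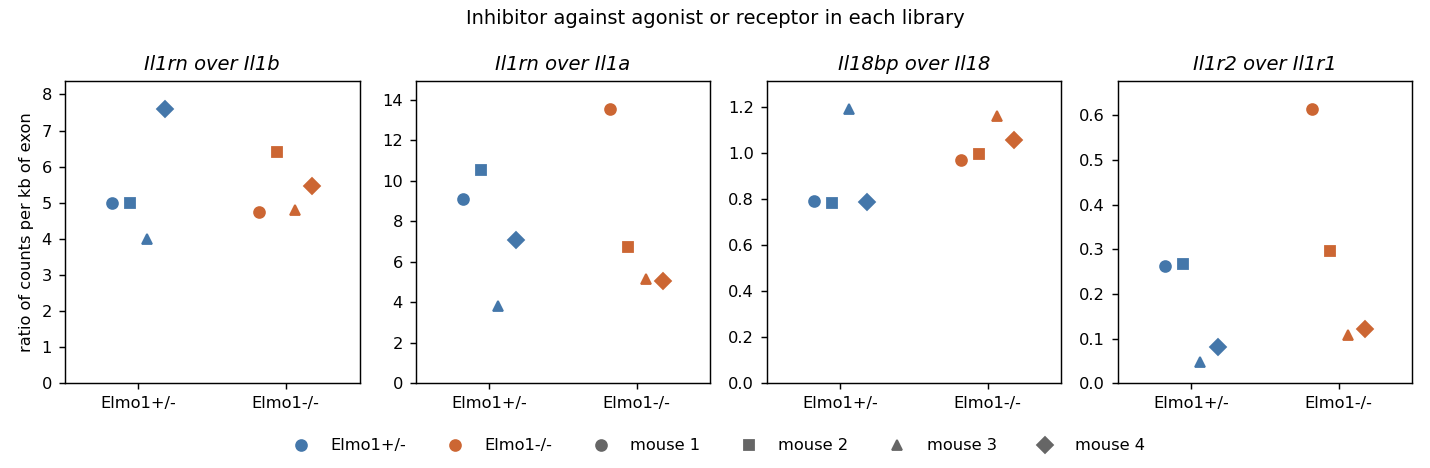
Ratio of inhibitor to partner RNA per kilobase of exon (vertical axes, linear, starting at 0) for 4 gene pairs, with 1 point per mouse, 4 mice per genotype. The ratio of *Il1rn* to *Il1b* is at least 4.002 in every library, and in the panel of *Il18bp* to *Il18* 1 control mouse stands above the other 3.

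The larger differences were between mice of the same genotype. On the first principal component of all genes tested, which held 62.3% of the variance, the 4 libraries numbered 1 and 2 lay on one side and the 4 numbered 3 and 4 on the other, with *Elmo1*-/- mouse 2 nearest to the middle. The meaning of the numbers is not in the labels, and the methods describe 2 experiments with 2 mice per genotype each without saying which mice belonged to which. The contrast was noticed in these data and is given without a test. *Il1a* lay between 208 and 438 in the mice numbered 1 and 2 and between 576 and 1022 in those numbered 3 and 4, with a mean 2.68 times as high. *Il1r1* lay between 97.4 and 258 in the former and between 358 and 428 in the latter, with a mean 2.44 times as high. The mean of *Il1rn* was 1.45 times as high, at 6135 to 8271 against 9618 to 11417. *Il18* was lower in the mice numbered 3 and 4, at 100.5 to 131 against 148 to 229, and so was *Casp1*, at 2866 to 3070 against 3081 to 3958.

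In this contrast 3 of the 10 genes had all 4 libraries numbered 3 and 4 above the other 4, against 18.1% of all genes tested, and 2 of the 10 had them all below, against 15.8%. The median size of the log2 difference, without its sign, was 0.53 for the 10 genes and 0.21 for all genes tested, and 1.78% of genes tested differed by as much as *Il1a*. The mean of *Il1b* was 1.46 times as high, but the ranges overlapped, at 424 to 594 against 517 to 946. *Il1rap*, *Nlrp3*, *Il18bp* and *Il1r2* also overlapped, with log2 differences of 0.14, −0.10, −0.35 and −0.55. The decoy to receptor ratio *Il1r2* over *Il1r1* was lower in every mouse numbered 3 or 4 than in any mouse numbered 1 or 2.

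All 11 osteoclast markers were higher without overlap in the mice numbered 3 and 4, with summed normalized counts of 452772 to 694534 in the mice numbered 1 and 2 and 1031880 to 1175860 in those numbered 3 and 4. Of 9 macrophage and monocyte markers 4 were lower without overlap in the mice numbered 3 and 4. The 9 summed to 233749 to 267929 in the mice numbered 1 and 2 and to 196361 to 247689 in the others. Of 11 neutrophil markers 10 were tested and 1 was lower without overlap. The 11 summed to 13843 to 24058 in the mice numbered 1 and 2 and to 11211 to 14388 in the others. Both pairs of sums overlapped. Of 9 stromal and osteoblast markers 6 were tested, and 1 of these was higher without overlap, while the median log2 difference of the 6 was −0.39. The 9 summed to 1111 to 1419 in the mice numbered 1 and 2 and to 773 to 1575 in the others. Of 6 dendritic cell markers 4 were tested and 1 was higher, with sums of 273 to 485 and 502.5 to 633, *Cd209a* being at 0 in every library. Of all genes tested, 18.1% were higher and 15.8% lower without overlap in the mice numbered 3 and 4. Lymphocyte markers summed to at most 8.51, and *Ncr1* was at 0. In bulk RNA, fewer cells of a type and less RNA per cell cannot be told apart, and the part of these cell types in the differences among the IL-1 genes was not tested. Between genotypes the summed counts of all 6 marker lists overlapped.

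Within the mice numbered 1 and 2, with 2 mice a genotype and no test, the *Elmo1*-/- minus *Elmo1*+/- difference was 0.34 for *Il1a*, 0.31 for *Il1rn* and 0.48 for *Il18bp* on the log2 scale. Within the mice numbered 3 and 4 it was −0.08, −0.11 and 0.28. The differences of *Il1a*, *Il1b*, *Il1rn*, *Il1r2* and *Casp1* thus had opposite signs in the sets, and those of *Il18*, *Il18bp*, *Il1r1*, *Il1rap* and *Nlrp3* the same sign.

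**Figure D4:**
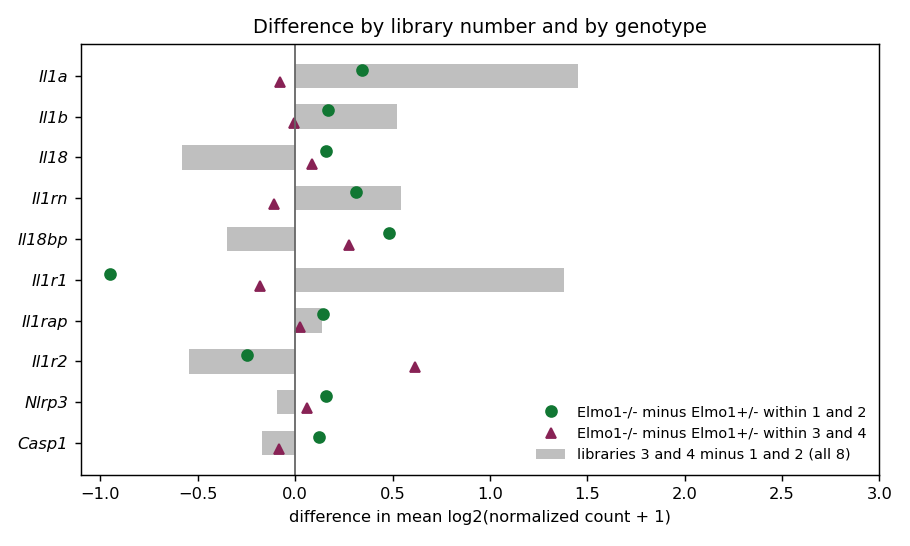
Differences in mean log2(normalized count + 1) (horizontal axis) for the 10 genes: grey bars give the 4 libraries numbered 3 or 4 minus the 4 others, and points give *Elmo1*-/- minus *Elmo1*+/- within the mice numbered 1 and 2 (circles) and within those numbered 3 and 4 (triangles), 2 mice per genotype. The bars of *Il1a* at 1.45 and *Il1r1* at 1.38 reach farthest to the right and that of *Il18* at −0.58 farthest to the left.

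The rest of the pathway was described in 6 lists. In none of the 6 was a gene called between genotypes by limma, and none had an unadjusted p under 0.05. Of the other IL-1 family ligands, 6 genes were found and 2 were tested. *Il1f9*, which encodes IL-36 gamma, was the highest of them, with a mean of 872 normalized counts (711 to 1037) and 529 per kilobase of exon, above the 315 per kilobase of *Il1b*. Its log2 fold change was −0.10, and it was higher in every library numbered 3 or 4 than in any numbered 1 or 2, by 0.24 on the log2 scale. *Il1f10* was at 0 in every library, and *Il33*, the gene of an alarmin of this family, had at most 0.989 normalized counts. Of the 7 other receptor genes 4 were tested. *Il1rl2*, which encodes the IL-36 receptor, was the highest at a mean of 564 (335 to 760) and a log2 fold change of 0.17, and *Il1rapl2* was at 0. None of the 4 parted the library numbers without overlap. *Il18r1*, which encodes the chain of the IL-18 receptor that binds the cytokine, had at most 1.98 normalized counts. *Il33* and *Il18r1*, and *Tnfaip3* further on, are named here after their values were seen.

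Of the 16 genes that carry the IL-1 receptor signal all were tested, with log2 fold changes from −0.10 to 0.09. *Irak3*, which encodes an inhibitory kinase-like protein of the pathway, was the highest at a mean of 9382 (8377 to 10462), and *Tab3*, an adaptor of the kinase TAK1, the lowest at 417 (345 to 460). In the contrast of library numbers 6 of the 16 were higher and 3 lower without overlap, against the shares of 18.1% and 15.8% given above. Of 12 other inflammasome sensors 10 were tested, with log2 fold changes from −0.07 to 0.37. *Naip2*, which encodes a sensor of bacterial secretion system proteins, was the highest at a mean of 3070 (2693 to 3467), and *Nlrp6* the lowest at 0.124. In the contrast of library numbers 1 of these sensors was higher and 3 were lower without overlap. Of 13 genes for inflammasome adaptors, caspases and pore proteins 12 were tested, with log2 fold changes from −0.07 to 0.12. *Ninj1*, whose product ruptures the plasma membrane late in lytic cell death, was the highest at a mean of 10107 (7359 to 15996), and *Casp12* the lowest at 7.03. In the contrast of library numbers 2 of the 13 were higher and 6 lower without overlap.

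Of 17 inflammatory genes that respond to IL-1 all were tested. *Saa3*, a serum amyloid A gene, was the highest at a mean of 39213 (29094 to 57589) and *Il6* the lowest at 127 (105 to 150), with log2 fold changes of 0.15 and −0.06. The list had a median log2 fold change of −0.01, a range from −0.44 to 0.33, and 7 of 17 genes were positive. In the contrast of library numbers 1 of the 17, *Tnfaip3*, which encodes a brake on NF-kB signalling, was higher without overlap and 0 were lower, against 18.1% and 15.8% of all genes tested.

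Likeness to *Il1b* and to *Il1rn* was measured as the root mean square difference of log2(normalized count + 1) after each gene was centred on its own mean, over the 8 libraries. The 5 genes nearest to *Il1b* were *Rgs1* at 0.15, *Gm11663* at 0.16, *Zfp964* at 0.17, *4933430I17Rik* at 0.17 and *Gm38248* at 0.18, where the median over all genes tested was 0.41. *Rgs1*, a regulator of G protein signalling, had its highest value, 190, in *Elmo1*+/- mouse 3 like *Il1b*, and its lowest, 86.2, in *Elmo1*-/- mouse 2. The 5 nearest to *Il1rn* were *Shisa3* at 0.10, *Tm4sf5* at 0.11, *Nsun4* at 0.12, *Eid2* at 0.12 and *F830045P16Rik* at 0.12, against a median of 0.36. The profiles compared come from the same 8 libraries, and the values are a description.

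Reads of a gene and of a partner on the opposite strand cannot be told apart where counting did not use strand, and the strand setting is not given in the sources used here. *Il18bp* overlaps *Numa1*, a gene of 2327 to 3490 normalized counts that was lower in every library numbered 3 or 4 than in any numbered 1 or 2, and *Numa1* had a log2 fold change of −0.06 between genotypes. *Il1a* overlaps *Gm14023* (2.97 to 18.0), *Il1b* overlaps *Il1bos* (0 to 4.76) and *Il1rap* overlaps *Gm20319* (0 in every library).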

How the data were processed

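The 8 libraries, 4 *Elmo1*-/- and 4 *Elmo1*+/-, were 75 bp paired-end mRNA libraries (TruSeq, NextSeq 500). Per the labels, the submitters' processing notes name FastQC, STAR, featureCounts and DESeq2 without versions, and which genome build or gene annotation they used is not given in the sources used here. Values were deposited as a signal, in which the reads of a gene in a library are divided by the DESeq2 size factor of that library. The deposited table also holds the authors' own comparison of the genotypes, whose columns were not used. Whole reads were recovered from the steps of each column, and 100% of values came out whole to within 0.01 of a read. Genes were named and placed with GENCODE M21 (GRCm38), which matched 46005 of the 46517 identifiers and left 512 unmatched.

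The genotypes were compared with limma 3.58.1 (R 4.3.3, trend and robust options) on log2(normalized count + 1) over genes that held 10 or more normalized counts in 4 or more libraries, and p-values were adjusted by Benjamini-Hochberg over all genes tested, with a threshold of 0.05. Ratios and single genes were compared with exact permutation tests. Alternatives were TMM factors, no filter, a pseudocount of 0.5 or 8, a minimum of 50, the omission of 1 mouse at a time, a block for the replicate number, the 2 sets of numbers as a term, and edgeR 4.0.16 and DESeq2 1.42.0 on the recovered reads. The deviations of same-numbered libraries from their genotype mean correlated at r = 0.156 to 0.703. Those of libraries of the other number in the same set correlated at r = 0.0259 to 0.691. The lowest value of each range belonged to *Elmo1*-/- mouse 2, and the labels do not say what a number stands for. No 2 libraries of a genotype were copies. The main limma fit and the edgeR fit were checked on simulated counts, and the other tests were not.

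The 10 genes, the other lists and the tests were chosen with earlier results of these data known, and the motif letters after the values were seen. Named were the 10 genes, of each pathway list the genes with the highest and lowest mean and any past the threshold, the 5 genes most like *Il1b* and *Il1rn*, and *Elmo1*.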

Additional observations from a re-analysis of the deposited data

Results flagged for a closer look

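Of 28 groups of 4 libraries checked for a value far from the others, 1 stood out: the log2 ratio of *Il18bp* to *Il18* was 1.80 in *Elmo1*+/- mouse 3, and its gap to the next control mouse took 0.9745 of the range of the group, above Dixon's 95% critical value. About 1 in 20 such groups is expected to stand out by chance, here 1.4. This mouse held 352 normalized counts of *Il18bp* and 100.5 of *Il18*, the latter the lowest of the 8 libraries.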

How the results depend on the processing

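Under the alternatives tried, 0 of the 10 genes were called. Of 169 recomputed fold changes, 39 equal the reported value by construction (the block, the set term and other filters), and of the 130 free to differ 119 kept their sign. The other 11 changed sign, each when 1 mouse was left out, and the ranges over left-out mice were −0.22 to 0.55 for *Il1a*, −0.057 to 0.33 for *Il1b*, −0.082 to 0.27 for *Il18*, −0.064 to 0.23 for *Il1rn*, −0.025 to 0.22 for *Il1rap*, −0.10 to 0.43 for *Il1r2* and −0.086 to 0.069 for *Casp1*. For *Il18bp*, *Il1r1* and *Nlrp3* they were 0.21 to 0.48, −0.88 to −0.22 and 0.05 to 0.15. The genotype difference of the log2 ratio ranged from −0.11 to 0.20 for *Il1rn* over *Il1b* and from −0.35 to 0.15 for *Il1rn* over *Il1a* when 1 mouse was left out, from 0.20 to 0.40 for *Il18bp* over *Il18* and from 0.27 (without *Elmo1*-/- mouse 1) to 1.09 for *Il1r2* over *Il1r1*, which was 0.31 without *Elmo1*+/- mouse 3. The 0.40 was reached without *Elmo1*+/- mouse 3, the control above all *Elmo1*-/- mice, so the lack of overlap there follows from the omission. Genes called in all were 1, and 2 without *Elmo1*+/- mouse 2 and with DESeq2, the cause of which was not tested. The genes whose genotypes did not overlap included 0 to 1 of the 10 genes, the 1 being *Il18bp* without *Elmo1*-/- mouse 3, where 2.57% of genes did not overlap.

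An unadjusted p under 0.05 was found for 133 genes, for 70 (without *Elmo1*+/- mouse 1) to 330 (without *Elmo1*-/- mouse 1) when 1 mouse was left out, for 389 with the replicate block, 411 with the sets of numbers as a term, 478 with no filter, 145 with edgeR and 181 with DESeq2. *Il18bp* had one with the block, the set term, no filter, DESeq2 and without *Elmo1*-/- mouse 3, and *Il1r1* with the block and the set term. With each of these 2 terms that was 2 of 10 genes, beside 389 and 411 of the 14139 genes tested. The sets were drawn from these same data and the labels do not pair mice by number, so these results are a description. With the block 1 gene was called, as without it. *Il1r2* was not tested at a minimum of 50, where it gave no value, and its 4 to 22 reads per library limit what can be said of it.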

Other observations

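The sensor gene *Nlrp10* and *Tnfrsf11b*, which encodes the RANKL decoy osteoprotegerin, were chosen after their values were seen. *Nlrp10* had the largest difference by library number among the 12 other inflammasome sensors, at 1.89 on the log2 scale with values from 36.9 to 247 normalized counts. *Tnfrsf11b* had a difference of 1.83 in the same direction, with values from 22.7 to 370. It was the largest among the tested stromal and osteoblast markers, whose median difference was −0.39. *Nlrp10* and *Tnfrsf11b* both exceeded the difference of *Il1a*, and their log2 fold changes between genotypes were −0.07 and −0.28, neither past the limma threshold.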
